A study of Mus musculus with 15 samples.

Results

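The Ptgs2 locus of the mouse was examined as the stretch chr1:151900000-152100000 of genome build mm9, which holds Ptgs2 near 151.95 Mb and about 150 kb beyond it. Peaks of 15 ATAC-seq libraries that overlap this window were taken, 178 peaks of 1041573 in all, and those that overlapped one another were merged. They form 13 regions, of 104855 in the genome, and are numbered 1 to 13 here in order along the chromosome. ATAC-seq cuts DNA with a transposase wherever chromatin lets the enzyme in, so a peak marks accessible chromatin. All cells were primary macrophages grown from bone marrow of C57BL/6 mice in medium conditioned by L929 cells and used on day 7 of differentiation. Of the 5 groups of 3 libraries, 4 had received bacterial lipopolysaccharide (LPS, 10 ng/ml), with exposures of 30 min, 1 h, 2 h and 4 h, and 1 was left untreated. The question was which sites of the locus are accessible at rest, which become accessible with LPS, and when. The window was selected on the gain of peaks in LPS libraries over untreated ones, the readout used here, so all values below describe the locus and none is a test of it.

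Ptgs2 encodes cyclooxygenase-2, the inducible enzyme that turns arachidonic acid into prostaglandin H2, from which prostaglandin E2 and the other prostanoids of fever, pain and inflammation are made. LPS acts on macrophages through the receptor TLR4, and Ptgs2 is a textbook target of the NF-kB, C/EBP and CREB/AP-1 factors that act below it. In the RefSeq gene order of the later build GRCm38, the lncRNA gene Ptgs2os precedes Ptgs2 and Pla2g4a lies beyond Ptgs2os. Pla2g4a encodes the cytosolic phospholipase A2 that frees arachidonic acid. On the other side follow a pseudogene, Gm9687, and then the lncRNA gene Ptgs2os2, known as lincRNA-Cox2, an LPS-induced RNA of mouse macrophages. Without gene models for mm9, regions are given by position, none is assigned to an exon, intron or neighbouring gene, and the macrophage label could not be checked at marker genes.

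The promoter of Ptgs2 is shown because of the change in covered bases at the gene. Of the 13 regions, the one there differed most from untreated libraries in mean covered bases at 1 h, 2 h and 4 h. At 30 min the mean difference was 744 bp there and 845 bp in region 8. RefSeq places the promoter, in build GRCm38.p6, at chr1:150099781-150100080 on the plus strand, 250 bases before to 50 bases after the start of the gene. These coordinates cannot be set against those of the peaks, which are of build mm9. Capitals mark the matches to the C/EBP motif TTNNGNAA and to CGTCA, a part of the cyclic AMP response element TGACGTCA that CREB binds.
Ptgs2 promoter: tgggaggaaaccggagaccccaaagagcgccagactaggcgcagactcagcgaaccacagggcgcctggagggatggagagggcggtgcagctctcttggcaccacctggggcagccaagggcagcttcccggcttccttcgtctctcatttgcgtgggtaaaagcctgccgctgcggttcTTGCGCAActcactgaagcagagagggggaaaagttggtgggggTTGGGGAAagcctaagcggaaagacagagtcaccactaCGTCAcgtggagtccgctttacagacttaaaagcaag
Both strands were searched. The 2 C/EBP matches start at positions -69 and -25 from the gene's start, and 40.7% of 32851 RefSeq promoters of the same length hold a match. The CGTCA match starts at position 14, and 20.8% of promoters hold 1 or more. It is followed by an overlapping E-box (CANNTG) at position 17, a motif with 3 matches here and a match in 72.3% of promoters. The ETS motif AGGAAG had 1 match, against 35.4% of promoters with a match. The NF-kB motif, the full element TGACGTCA, the AP-1 motif TGANTCA and TATAAA had 0 matches in these 300 bases. They are found in 4.51%, 1.79%, 7.81% and 13.6% of promoters, and their absence says only that these letters are not in this window.

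The 15 lists held 52449 to 82224 peaks and covered 84.0 to 129.4 Mb. Read depth is unknown, counting error cannot be stated, and a place without a peak is only a place where none was called. The shortest list of each LPS time is that of replicate 3. The labels speak of triplicates without naming separate mice or cultures, so the spread within a group may be technical.

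Of the 13 regions, 4 (regions 3, 5, 6 and 7) had a peak in all 15 libraries, among them the region of Ptgs2 itself (region 3). Of the other 9, 8 had no peak in any untreated library and 1, region 9, had a small peak in 2 of them. The new regions lie on both sides of the gene, 2 before it and 6 after it, up to 152 kb away. No region of the window was lost, that is, was covered by peaks of all 3 untreated libraries and of no library of some LPS time. Only regions 3, 5, 6 and 7 had a peak in all 3 untreated libraries and so could be lost. Lost regions made up 0.277% of the genome's regions at 30 min and 1.20% at 1 h. They made up 0.817% at 2 h and 1.07% at 4 h.

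**Figure D1:**
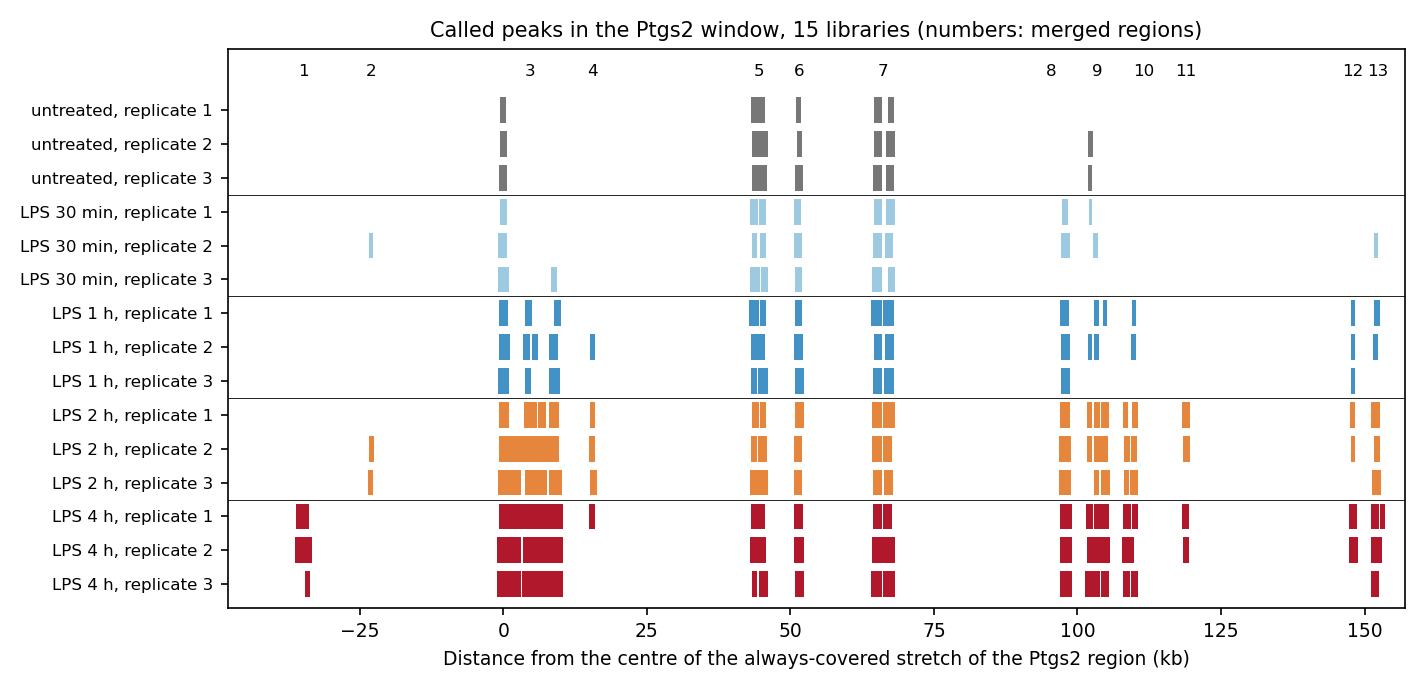
Peaks called in the 15 libraries, 1 row each, over the 200 kb window, as bars drawn to scale against the distance in kb from the centre of the stretch of the Ptgs2 region that every library covers. Numbers at the top name the 13 merged regions. Untreated rows hold 5 to 7 peaks and the 4 h rows 13 to 17, and in all 3 of the 4 h rows the peaks of region 3 fill 11172 bp or more.

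Region 3, at chr1:151945989-151957538, contains the position of Ptgs2. Its first part, 151946554 to 151947668, was covered in every library. In untreated cells that was all: single peaks of 1115, 1253 and 1355 bp, none of which reached past 151947790. At 30 min the region had 1244, 1555 and 3156 bp under peaks, the third value with a second peak after a gap of 7244 bp. At 1 h it had 4171, 5673 and 4959 bp, at 2 h 7102, 10324 and 10001 bp, and at 4 h 11172, 11234 and 11338 bp. Thus the 30 min libraries overlapped the untreated ones, while every library from 1 h on lay above all 3 of them. Such a full separation upward was seen in 6.06% of the 34777 regions open in all 15 libraries at 30 min and in 6.24% at 1 h. It was seen in 15.2% of them at 2 h and in 11.4% at 4 h.

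By group, 11248 ± 83.9 bp were covered at 4 h, against 1241 ± 120 bp in untreated cells (SD, n = 3 each), a ratio of 9.06. The ratio of means was 1.60 for the 30 min group, 3.98 for the 1 h group and 7.37 for the 2 h group. Over the 34777 always-open regions the median ratio at 4 h was 1.03, and 8 regions, this one among them, had 9.06 or more. The window was selected on gains with LPS, so this rank describes region 3 and is no evidence about it. At 4 h the 3 libraries were closer to each other in covered bases than at any earlier LPS time. They covered 96.7%, 97.3% and 98.2% of the merged region. Its limits are set by its outermost peaks, so these values had little room to differ.

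As peaks were called, the added bases lay in separate places before they met, in part under low-scoring peaks. At 1 h all 3 libraries covered 151950885 to 151951719 and 151955880 to 151956723, both apart from the peak that was there at rest. At 2 h the 3 longest stretches covered in all 3 libraries and in no untreated one were 151950876 to 151953065, 151953115 to 151954592 and 151955156 to 151956754. At 4 h the longest were 151947791 to 151950238 and 151950545 to 151957474. The longest gap inside a library spanned 2325 to 3747 bp at 1 h and 81 to 2628 bp at 2 h, and 278 bp or less in the 4 h libraries.

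The peak over the always-covered part was wider than at rest in every library from 1 h on, with a large spread. Its width was 1244, 1555 and 2014 bp at 30 min, 1508, 1879 and 1893 bp at 1 h, 1764, 8308 and 3950 bp at 2 h and 11172, 4278 and 4230 bp at 4 h. Against untreated cells the mean width was 3.77 times as large at 2 h, and 2.30 times without 2 h replicate 2. At 4 h it was 5.29 times as large, and 3.43 times without 4 h replicate 1. At 4 h the whole stretch was called as 1 peak in replicate 1 and as 2 peaks in the others, while their covered bases were alike. Among 34584 regions with such an always-covered part, all 3 libraries lay above all 3 untreated ones in 5.73% at 30 min and 5.45% at 1 h. The share was 13.7% at 2 h and 10.5% at 4 h.

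Each peak carries a score, the authors' own value, whose meaning no file header or label states. Scores are given here and below to rank peaks within their own list, and no change is read from them between lists. For this peak they were 377.69, 637.92 and 952.34 in the untreated lists, 1167.71 to 1983.07 at 30 min, 1902.5 to 2390.74 at 1 h, 2770.83 to 3100 at 2 h and 2764.92 to 3100 at 4 h. A percentile is the share of peaks in the same list with a lower score, so peaks tied at 3100 all get the same value, below the top. The untreated peaks stood at percentiles 62.1 to 76.0 of their own lists. The second peak of the region, which covers its far part at 4 h, scored 1304.28 in replicate 2 and 2701.44 in replicate 3, percentiles 83.4 and 96.3 of those lists. At 1 h the peaks of the far part scored between 57.82 and 205.25.

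**Figure D2:**
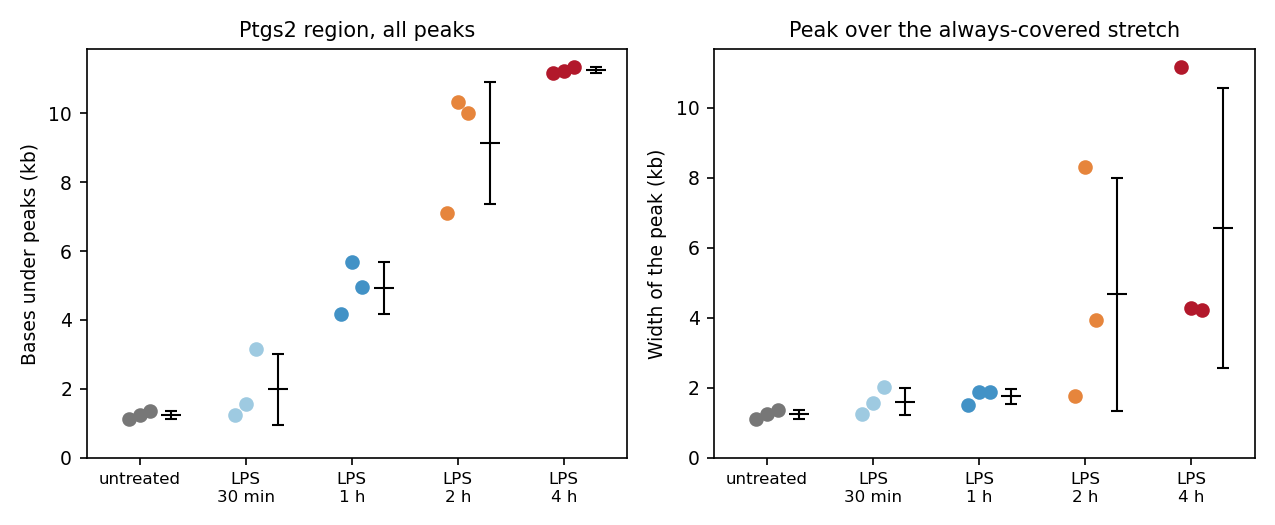
Region 3 in each library: bases under all its peaks in kb (left) and the width in kb of the peak over the part covered in every library (right). Points are libraries, 3 per group, and the bar beside them is the mean with the SD. Covered bases reach 11172 to 11338 bp at 4 h and 1115 to 1355 bp in untreated cells, while the single peak at 4 h is 11172 bp wide in replicate 1 and 4230 to 4278 bp in the others.

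Regions 5, 6 and 7 were open at rest as well and lie 44.5, 51.6 and 66.1 kb from the centre of the always-covered part of region 3. Region 5 (151989998 to 151993250) had 2590, 2752 and 2520 bp under peaks at 4 h, against 2441, 2649 and 2700 bp in untreated cells. The groups overlapped, and the ratio of means was between 0.973 and 1.02 at the 4 times. It was called as 1 peak in some libraries of each group except 30 min and as a pair in others.

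Region 6 (151997757 to 151999572) had 1619, 1799 and 1728 bp under its single peak at 4 h, against 1001, 800 and 1485 bp in untreated cells. Here the 4 h libraries lay above the untreated ones, with a ratio of means of 1.57. Such a separation was seen in 11.4% of the 34777 always-open regions at 4 h. In region 6 the groups overlapped at 30 min, 1 h and 2 h, with ratios of 1.14, 1.34 and 1.32. Its scores stood at percentiles 87.9 to 94.2 of the 4 h lists and 30.0 to 77.3 of the untreated lists. How often percentiles stand apart in this way among other regions was not counted, so nothing particular to region 6 is read from them.

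Region 7 (152011126 to 152015356) is a pair of peaks in every library, the first with scores of 1529.98 or more throughout. It had 3279, 4065 and 4066 bp under peaks at 4 h, against 2337, 2858 and 3048 bp in untreated cells, a ratio of 1.38 without overlap. At 2 h the ratio was 1.29, also without overlap, and at 30 min and 1 h the groups overlapped. Such a separation upward was seen in 15.2% of the 34777 always-open regions at 2 h and in 11.4% at 4 h. The gap between the 2 peaks of region 7 was 142, 14 and 116 bp at 4 h, against 1066, 784 and 628 bp in untreated cells. In every list the second peak scored below the first, at percentiles 80.9 to 90.5 of the 4 h lists and 53.3 to 62.4 of the untreated lists. How often gaps or percentiles stand apart in this way among other regions was not counted, so nothing particular to region 7 is read from them.

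Region 8 (152043838 to 152046149), centred 97.9 kb past the Ptgs2 site, has the highest score of the new regions in each list that calls it. No untreated library had a peak there. At 30 min peaks of 1055 and 1480 bp were called in replicates 1 and 2 and none in replicate 3. From 1 h on each of the 9 libraries had a single peak, of 1570, 1520 and 1517 bp at 1 h, 1811, 2104 and 2064 bp at 2 h and 2031, 2133 and 2038 bp at 4 h. Every 2 h and 4 h library thus had a wider peak than any 1 h library. How often this holds among the other regions of the genome was not counted, so nothing particular to region 8 is read from it. Scores were 300.65 and 396.77 at 30 min, 341.67 to 1446.89 at 1 h, 1502.73 to 3173.73 at 2 h and 2835.42 to 3100 at 4 h. In the 4 h lists these peaks stood at percentiles 94.2 to 96.6. The 94.2 belongs to replicate 1, whose score of 3100 is the tied one, so it does not mark a weaker peak.

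Region 9 (152048505 to 152052724) begins 2355 bp after region 8. Untreated replicates 2 and 3 had a peak of 841 and 646 bp there, with scores of 85.56 and 72.45, and replicate 1 had none. Both lie between 152048897 and 152049737. The LPS libraries added peaks beside this site: the centre of the stretch 152049951 to 152050862 was covered in no untreated library, in 1 of the 30 min ones, in 2 of the 1 h ones and in all later ones. The centre of the stretch 152051203 to 152052478 was covered in no untreated or 30 min library, in 1 of the 1 h ones and in all later ones. Bases under peaks were 4106, 3958 and 4057 at 4 h and 3593, 3445 and 2421 at 2 h, against 0, 841 and 646 in untreated cells. Because the small peak at rest merges with its new neighbours, region 9 is not counted as gained below, although most of its bases were free of peaks in untreated cells.

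Region 10 (152054829 to 152057724) follows 2104 bp later. No untreated or 30 min library had a peak. At 1 h replicates 1 and 2 had peaks of 666 and 867 bp in its second part, with scores of 100.31 and 64.07. At 2 h all libraries had a pair of peaks, with 1896, 2123 and 2304 bp covered. At 4 h 2370, 2157 and 2305 bp were covered, in a pair of peaks in replicates 1 and 3 and a single peak in replicate 2. Its highest score per list was 83.57 to 150.95 at 2 h and 256.76 to 630.09 at 4 h.

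Region 13 (152098213 to 152100679), the last of the window, had no untreated peak, then a peak in 1 of the 30 min libraries, in 2 of the 1 h libraries and in all later ones. Covered bases were 1560, 1188 and 1494 at 2 h and 2236, 1874 and 1325 at 4 h. Its highest score was 242.88 to 355.04 in the 2 h lists and 341.29 to 1352.01 in the 4 h lists.

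**Figure D3:**
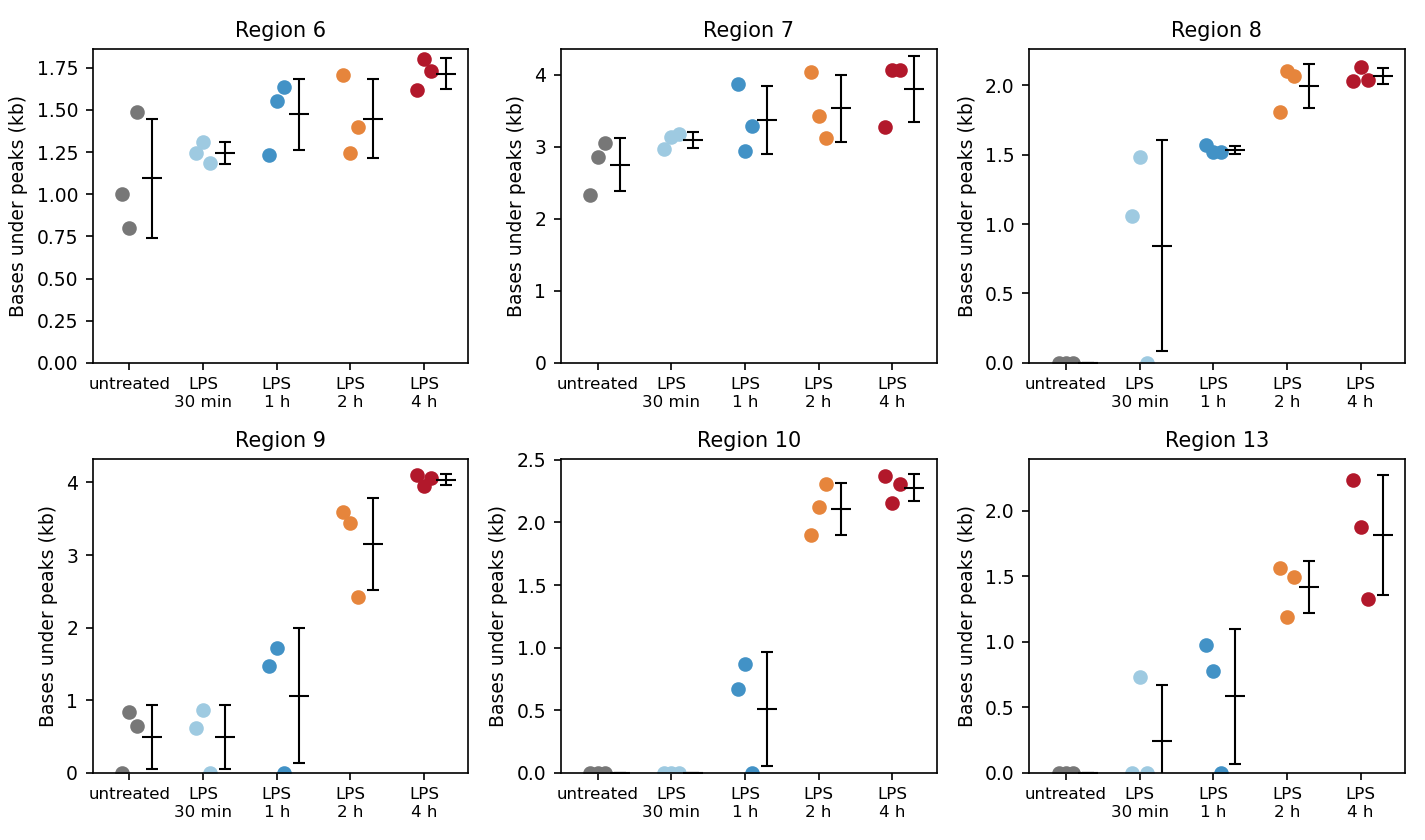
Bases under peaks in kb per library in regions 6, 7, 8, 9, 10 and 13. Points are libraries, 3 per group, and the bar beside them is the mean with the SD, cut at 0. Regions 6 and 7 are above 0 in every library, region 8 has values above 0 in 2 libraries at 30 min and in all later ones, and regions 9, 10 and 13 are above 0 in all libraries from 2 h on.

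The other 5 new regions had low scores and were less regular. Region 1 (151910787 to 151913739), centred at -34.85 kb from the Ptgs2 site, had no peak in the 12 libraries to 2 h and one in each 4 h library, with 2193, 2953 and 859 bp covered and highest scores of 149.92, 230.43 and 95.16. Region 4 (151961981 to 151963480) lies 4442 bp after region 3. It was called in 1 of the 1 h libraries, in all 2 h libraries with scores of 194.81, 75.48 and 57.85, and in 1 of the 4 h libraries. Region 12 (152094317 to 152095883) had peaks of 608 to 691 bp in all 3 libraries at 1 h, with scores of 52.07, 103.8 and 57.18. The scores in replicates 1 and 3 lie just over the lowest score of 50 in the lists. At 2 h and at 4 h it was called in replicates 1 and 2. Region 11 (152065285 to 152066795) had a peak in replicates 1 and 2 at 2 h and at 4 h. Region 2 (151923601 to 151924537) had one in 1 library at 30 min and in 2 at 2 h. In regions 11 and 12 the libraries without a peak at 2 h and 4 h were the replicates 3, which have the shortest lists of their times. In region 12 a peak was called in 1 h replicate 3, whose list is the shortest of all (52449 peaks). Why these libraries differ was not tested.

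**Figure D4:**
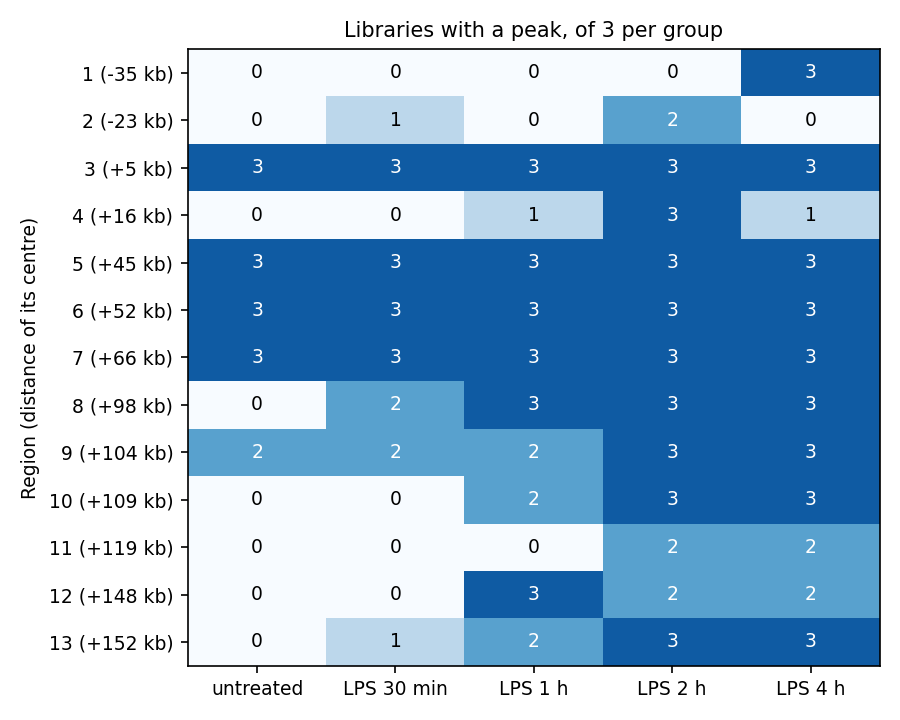
Number of libraries with a peak, of 3 per group, for each of the 13 regions (rows, with the distance of the region's centre in kb from the always-covered part of region 3) and each group (columns). Rows 3, 5, 6 and 7 hold 3 throughout, and row 8 holds 0, 2, 3, 3 and 3.

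A region counted as gained when all 3 libraries of an LPS time, but no untreated library, had a peak in it. At 30 min 0 of the 13 regions were gained, against 0.750% of regions in the genome. At 1 h 2 were gained, regions 8 and 12, against 1.67% in the genome. At 2 h 4 were gained, regions 4, 8, 10 and 13, against 5.03%, and at 4 h 4, regions 1, 8, 10 and 13, against 2.79%. The named regions change when low-scoring peaks are left out. With a score of 100 or more, region 8 alone was gained at 1 h, regions 8, 9 and 13 were gained at 2 h, and regions 8, 9, 10 and 13 at 4 h. With all lists cut to the length of the shortest, the same regions were gained at 1 h and 2 h, and region 1 joined those at 4 h. Region 9 enters there because its untreated peaks drop out. The window was picked for these gains, so nothing is read from how these counts stand to the genome. With replicate 3 of the LPS time left out, 1 region was gained at 30 min and 4 were at 1 h, and 6 were gained both at 2 h and at 4 h. Leaving out a library eases the rule for a gain, so such a count can only stay the same or rise.

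Of the 8 new regions, 3 were first seen in any library at 30 min, another 3 at 1 h, and 1 each at the later times. None was complete, with a peak in every library of its time, by 30 min. Regions 8 and 12 were first complete at 1 h, regions 4, 10 and 13 at 2 h, and region 1 at 4 h. Regions 2 and 11 were not complete at any time. These times rest on low scores in part. With a score of 100 or more and with lists of equal length, region 8 was still first gained at 1 h and region 13 at 2 h, while region 10 was first gained at 4 h and regions 4 and 12 at no time. Region 1 was gained at 4 h with lists of equal length but not with a score of 100 or more.

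Counting bases instead of regions, which also takes in regions 3 and 9, 18.4 kb of the window were under a peak in all 3 libraries at 4 h and in no untreated one. This was 47.7% of the bases under any of the 6 lists, against 3.83% in the genome, and 9446 bp of it lay in region 3. The same count was 0 kb at 30 min, 3.94 kb at 1 h and 13.6 kb at 2 h, which is 0%, 17.0% and 39.0% of the covered bases, against 1.36%, 2.42% and 6.07% in the genome. With a score of 100 or more, and likewise with lists of equal length, the count was 1658 bp at 1 h and 8398 bp at 2 h. Without 1 h replicate 3 the count at 1 h was 6192 bp, and without 30 min replicate 3 it was 1121 bp at 30 min. With a library left out this count, too, can only stay the same or rise.

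The window as a whole had 6.89, 8.40 and 9.23 kb under peaks in untreated libraries. It had 9.85, 11.7 and 10.4 kb at 30 min, 17.3, 18.9 and 14.6 kb at 1 h, 27.2, 30.2 and 27.96 kb at 2 h and 34.7, 35.2 and 30.2 kb at 4 h. Every LPS library lay above all untreated ones, which held for 4.50% of the 6686 windows of 200 kb with peaks in all 15 libraries at 30 min and 5.70% at 1 h. It held for 27.1% of them at 2 h and 12.0% at 4 h. The mean was 33.4 ± 2.73 kb at 4 h, against 8.18 ± 1.19 kb in untreated cells (SD, n = 3 each), 4.08 times as much. The ratio was 1.30 for 30 min, 2.07 for 1 h and 3.48 for 2 h. Of the 6686 windows, 28 had a ratio of 4.08 or more at 4 h, and the median over all 6686 was 1.09. These windows were tiled from the first base of each chromosome. The Ptgs2 window was placed around the opened regions, overlaps some of them and is not itself among them, so its rank is not like for like.

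The window was also set against the length of each list and taken without the gene region. As a share of each list's covered bases, the window held 29.6 ± 3.33 per 100000 at 4 h, against 8.21 ± 1.20 in untreated cells (SD, n = 3 each), a ratio of 3.61. On that scale the 30 min libraries (8.62, 10.8 and 11.5) overlapped the untreated ones (8.17, 7.03 and 9.43), and the later ones did not. Of the 6686 windows, 7.48% lay fully above untreated on this scale at 30 min and 11.9% at 1 h, and 17.8% did at 2 h and 16.3% at 4 h. Without region 3 the window had 22.1 ± 2.80 kb under peaks at 4 h, against 6.93 ± 1.07 kb in untreated cells, a ratio of 3.19. Region 3 thus held 33.7% of the window's covered bases at 4 h, against 15.2% in untreated cells.

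**Figure D5:**
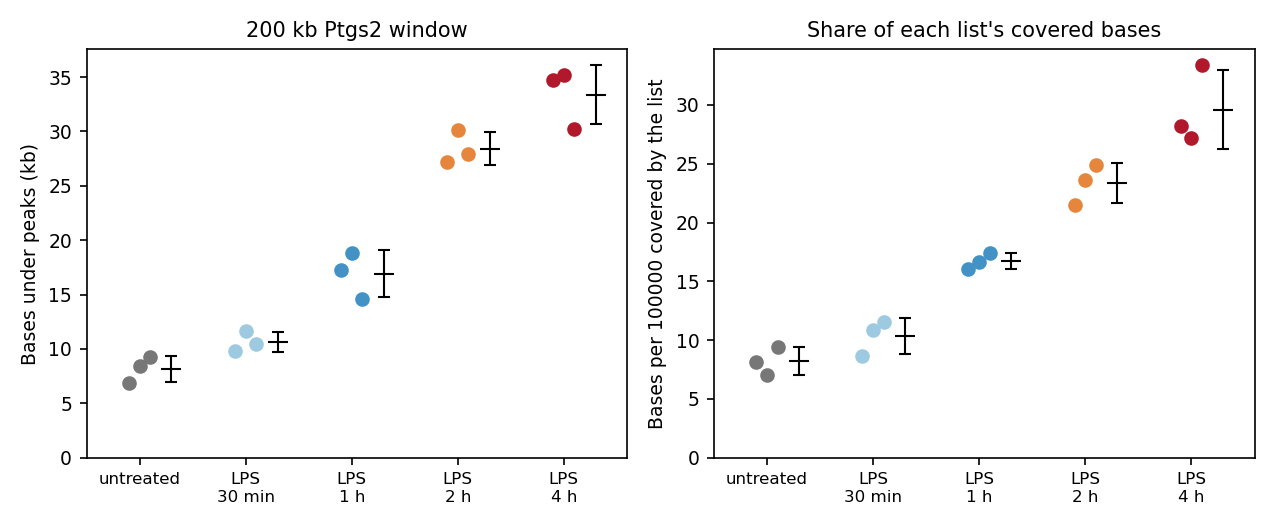
Bases under peaks in the 200 kb window per library, in kb (left) and per 100000 bases covered by the whole list (right). Points are libraries, 3 per group, and the bar beside them is the mean with the SD. The 4 h libraries lie at 30.2 to 35.2 kb and the untreated ones at 6.89 to 9.23 kb.

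The limits of the window cut through a stretch with further regions. The first region outside it, at 152104313 to 152105281, was called in all 4 h libraries and in none before, and the last inside, region 13, starts 1788 bp before the limit and runs over it. On the other side the nearest region outside, at 151861695 to 151863688, was called in all 2 h and 4 h libraries and in none of the others. The first inside, region 1, starts 10787 bp after that limit.

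The windows of 200 kb whose share of covered bases followed that of the Ptgs2 window most closely over the 15 libraries were sought among 6684 others. They are chromosome 19 at 11600001 to 11800000 (Pearson r = 0.980), chromosome 13 at 20800001 to 21000000 (r = 0.975), chromosome 7 at 81600001 to 81800000 (r = 0.973), chromosome 6 at 52600001 to 52800000 (r = 0.971) and chromosome 6 at 129000001 to 129200000 (r = 0.970). These values describe likeness over libraries that share their list and their time, and they were the highest of many. In the window on chromosome 19 the share was 28.3 per 100000 at 4 h, against 14.2 in untreated cells. It was 36.0 against 7.06 in the one on chromosome 13 and 38.6 against 8.47 in the one on chromosome 7. In the 2 on chromosome 6, in the order given, it was 35.7 against 17.1 and 30.7 against 18.0. A high correlation thus does not mean a rise of the same size.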

How the data were processed

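The authors deposited 1 peak list per library, with chromosome, start, end, name and a score for each peak. Bowtie 1.1.2, MACS 1.4 and build mm9 were used, per the submitters' processing notes. Not given in the sources used here: settings, any control library, handling of duplicates, and any shift of reads for the transposase. The deposited score ran from 50 to 3233.06, with 5.0% of peaks tied at 3100, and served to order peaks of the same list and to drop low ones. No header or label states its meaning. No 2 lists shared more than 13 identical intervals. Depth is unknown, and wide or numerous peaks may follow depth.

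Groups come from the sample titles. Mitochondrial peaks (2 per list) were left out, peaks overlapping by 1 bp or more were merged over all 15 lists, and positions count from 1. Bases of the window were cut at its limits. All regions of the window are named, and the 5 most similar windows were chosen by correlation among windows tiled from the first base of each chromosome. No test was run, since the members and lists were chosen with earlier results of these data known. The functions were tested on simulated lists. Other prostaglandin genes and cell type markers would need an annotation of build mm9 and were not analysed here. Promoter sequences are from RefSeq (GRCm38.p6). Alternatives were a score of 100 or more, lists cut to equal length, coverage of 50% of a region, merging within 500 bp, a peak in 2 of 3 libraries, scaling by the list and each library left out. Counting bases, and leaving out region 3, were added after the data had been seen. Computation used Python 3.11.15, numpy 2.4.6 and pandas 2.3.3.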

Additional observations from a re-analysis of the deposited data

How the results depend on the processing

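No ratio to untreated moved to the other side of 1 under any alternative run. Counts have no direction and could not turn round. The count of lost regions was 0 under each, but under the main rule only regions 3, 5, 6 and 7 could be lost. Gained regions at 1 h numbered 1 with a score of 100 or more, with lists of equal length and with 50% of a region covered, in place of 2. At 2 h they numbered 3 in place of 4 with a score of 100 or more and with lists of equal length, where regions 4 and 10 left and region 9 entered. At 4 h region 9 entered under both, and region 1 left with a score of 100 or more only. With 50% of a region covered, regions 3 and 9 entered at 2 h and 4 h, region 13 left at 2 h and region 1 at 4 h. With a peak in 2 of 3 LPS libraries sufficient they numbered 1 at 30 min and 4 at 1 h. At 2 h they then numbered 7, and at 4 h 6. With each library left out in turn they numbered 0 to 1 at 30 min, 2 to 4 at 1 h, 4 to 6 at 2 h and 4 to 6 at 4 h. Leaving out a library eases the rule for a gain, so these counts could only stay the same or rise. The ratio of the window's covered bases to untreated was 1.68 at 1 h and 3.06 at 2 h with a score of 100 or more, and 1.70 and 2.88 with lists of equal length. It was 2.84 at 2 h and 3.61 at 4 h as a share of the list, and 1.73 at 1 h, 2.78 at 2 h and 3.19 at 4 h without region 3. With each library left out it was 1.21 to 1.39 at 30 min, 1.92 to 2.21 at 1 h, 3.22 to 3.72 at 2 h and 3.78 to 4.36 at 4 h. Gained bases were 1658 bp at 1 h and 8398 bp at 2 h, both with a score of 100 or more and with lists of equal length. With a library left out they, too, could only stay the same or rise. With each library left out they ranged over 0 to 1121 bp, 3968 to 6192 bp, 13595 to 17150 bp and 18421 to 23008 bp at the 4 times. The width ratio of the peak over the always-covered part then ranged over 1.13 to 1.44, 1.35 to 1.52, 2.30 to 4.94 and 3.43 to 6.22. The cause of these shifts was not tested beyond what each alternative removes by construction. With lists of equal length region 2 had a peak in 1 library in place of 3, region 4 in 1 in place of 5, region 10 in 4 in place of 8, region 11 in 0 in place of 4 and region 12 in 2 in place of 7. With a score of 100 or more region 4 had 2, region 10 had 5 and region 12 had 2. No paired analysis was possible because no result comes from a test and the labels do not say what a replicate number marks. The lists hold no read counts, so weak regions cannot be told from regions below the caller's limit.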
